A study of Mus musculus with 4 samples.

Results

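In mouse embryonic stem cells (mESCs), 9 genes that mark the exit from naive pluripotency were read in wild-type cells and in cells labelled *Spen* knockout: *Fgf5*, *Otx2*, *Pou3f1*, *Zic2*, *Sox3*, *Sox4*, *Lin28a*, *Lin28b* and *Sall2*. They were chosen by name among 37310 genes of the count table, as known genes of the formative and primed states, by a rule that holds no measured value but was written with earlier results of these data known. The 9 symbols belonged to 11 gene models, since *Pou3f1* and *Sox4* each had 2. RNA was sequenced from 2 libraries of the HATX WT line and 2 of *Spen* KO clone 2, made in the same line, so each group was 1 line and the knockout was 1 clone. Both lines hold, on the X, an *Xist* transgene that doxycycline switches on, are of mixed genomic background, are described by the study as haploid and were grown in serum and LIF on gelatin, with no treatment given in the labels. The libraries of a group are not said to come from separate cultures, so p-values measure only the spread between these libraries, which may be technical. Ploidy was not measured here. The comparison asks how these genes differ when cells are made to lack Spen, an RNA-binding repressor that *Xist* needs to silence the X chromosome.

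Naive pluripotency is the state of the early epiblast and of mESCs held by LIF. Cells that leave it pass through a formative state, in which they become able to form germ layers and germ cells, and then a primed state like that of the epiblast just before gastrulation. OTX2 and POU3F1 (also called OCT6) are transcription factors that steer this transition, and FGF5 is the secreted growth factor most used to mark its completion. ZIC2, SOX3, SOX4 and SALL2 are transcription factors found in the post-implantation epiblast and its neural descendants. LIN28A and LIN28B are RNA-binding proteins that block the maturation of let-7 microRNAs, which otherwise push cells towards differentiation. In a culture, a lower level in fewer cells and a lower level per cell cannot be told apart in bulk RNA.

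In the labelled knockout libraries, *Lin28a* and *Lin28b* were lower and *Sall2* was higher. *Otx2*, *Zic2*, *Sox3*, *Sox4* and *Fgf5* did not pass the test, and *Pou3f1* could not be read because of how its gene models overlap. Differences were tested with DESeq2 across all genes with Benjamini-Hochberg adjustment, and a gene passed at an adjusted p under 0.05. Of the 8 members with an adjusted p, 2 passed as lower and 1 as higher, where 15.8% and 16.4% of the 17710 genes tested did so. None of the 8 reached the study's own call, a fold change of at least 2 with an adjusted p under 0.001, which 3.15% of all genes met as lower and 1.36% as higher. edgeR called 0 by the same 2-fold rule, though it passed 1 member as higher and 3 as lower at an adjusted p under 0.05. At an unadjusted p under 0.05, DESeq2 passed 3 members. The members' median log2 fold change was -0.17, beside 0.0049 over all genes tested.

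Depth ran from 36667685 to 43835004 total counts per WT library and from 54715889 to 61908422 per KO-labelled library. *Spen* RNA was not lower in the libraries labelled knockout: it had 3716 and 3047 normalized counts in WT and 7797 and 6242 in the libraries labelled knockout (log2 fold change 1.05 ± 0.21 SE, DESeq2 adjusted p = 7.7e-06). Counts were summed over the whole gene, while the cell line is described as lacking most of *Spen*, with no ends given, so where in the gene these counts lie was not checked. Spen protein was not measured here, though the study itself examined it by immunoblot in WT and *Spen* KO cells. All directions are between libraries as labelled. Replicate libraries differed by an SD of 0.229 (WT) and 0.217 (KO-labelled) on the log2 scale over 13306 genes with a mean of at least 50 normalized counts. The 9 mESC markers checked, *Pou5f1* and *Nanog* among them, summed to 235850 to 241630 normalized counts in WT and 242550 to 254170 in the KO-labelled libraries, as the cell type label says. Without *Dppa5a* they summed to 190490 and 188600 in WT against 181440 and 195510, and the groups overlapped. Medians by chromosome ran from -0.35 (chromosome 10) to 0.38 (chromosome 19), those of chromosomes 5, 13 and X, which hold *Fgf5*, *Sox4* and *Sox3*, were 0.057, -0.016 and -0.056, and those of chromosomes 4, 10 and 14 are given with the genes around the other members.

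The let-7 microRNAs that LIN28 proteins bind are shown first, because the members that fell act on them. RefSeq gives these hairpins (GRCm38.p6) for the 4 family members whose gene models had the most counts, 5′ to 3′, with the seed and the GGAG bases that LIN28 zinc knuckles recognise in capitals.
let-7d (chr13:48536012-48536114, minus strand): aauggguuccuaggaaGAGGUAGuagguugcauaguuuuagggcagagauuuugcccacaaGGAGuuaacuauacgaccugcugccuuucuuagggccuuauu
let-7a-1 (chr13:48538179-48538272, minus strand): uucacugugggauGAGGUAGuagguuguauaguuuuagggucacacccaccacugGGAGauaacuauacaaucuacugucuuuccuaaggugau
miR-98 (chrX:151913214-151913321, plus strand): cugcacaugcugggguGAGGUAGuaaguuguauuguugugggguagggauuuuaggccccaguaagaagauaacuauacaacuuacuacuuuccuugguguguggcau
let-7g (chr9:106178840-106178927, plus strand): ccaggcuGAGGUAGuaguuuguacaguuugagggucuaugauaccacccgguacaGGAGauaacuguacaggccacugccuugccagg
All 9 mature 5p names of the family in the RefSeq table shared 1 seed, GAGGUAG at bases 2 to 8. GGAG stood in 9 of the 12 family hairpins and in 44.5% of 1005 mouse hairpins, and miR-98 had none.

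*Lin28a* and *Lin28b* messages are themselves known let-7 targets. The 7 bases that pair with the seed, CTACCTC, were searched on the sense strand of the longest annotated 3′ UTR of each gene, where 8.8% of 20007 mouse genes held them. Of the 9 members, *Lin28a* held 2 matches and *Lin28b* held 4, and the other 7 held none. Each is given in 30 bases of the sense strand, with the match in capitals and the mm9 coordinates of the match, all on the minus strand.
Lin28a (chr4:133561105-133561111): gtgcacagcctgttgaaCTACCTCattttt
Lin28a (chr4:133560467-133560473): ttgagatcgccacaaacCTACCTCactgtg
Lin28b (chr10:45100829-45100835): tcacccgggcgggaagtCTACCTCatgcaa
Lin28b (chr10:45098455-45098461): catatacttgttagtaaCTACCTCtgagtt
Lin28b (chr10:45098283-45098289): ctgtttacagcacatggCTACCTCccagct
Lin28b (chr10:45096867-45096873): ggaaatgatggcaccgaCTACCTCttcaat
Both 3′ UTRs are long, 2775 and 4445 bases, and 16.0% and 25.4% of 3′ UTRs of like length held a match. A match is a run of letters and not a measured site of binding.

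*Lin28a* (chromosome 4, 133559245 to 133574756, minus strand, mm9) was read at 27339 and 26639 normalized counts in WT, against 16687 and 17804 where the label was knockout. The groups did not overlap, and the gap between them was far wider than the spread within either. The means were 26989 ± 495 and 17246 ± 790 (SD, n = 2 each), and *Lin28a* fell by 36.1% (log2 fold change -0.65 ± 0.067 SE, DESeq2 adjusted p = 2.8e-20). LIN28A is the form made by pluripotent cells, and its message was the highest of the members in every library. Of its 3505 exonic bases, 16.3% had a copy elsewhere in the genome of at least 95% identity over 75 bases or more. How reads with several matches were counted is not stated, so a part of its count is uncertain.

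*Lin28b* (chromosome 10, 45096426 to 45206201, minus strand) had 2703 and 2800 normalized counts in WT and 1820 and 1783 in the KO-labelled libraries. Here too the groups did not overlap. *Lin28b* fell by 34.6% (log2 fold change -0.61 ± 0.092 SE, DESeq2 adjusted p = 5.5e-10), and with chromosome medians removed its log2 fold change was -0.27 (adjusted p = 0.018), beside -0.44 for *Lin28a*. Per kb of exon, the *Lin28a* level was 26.2 and 24.6 times that of *Lin28b* in WT and 23.7 and 25.8 times in the KO-labelled libraries. These ratios overlapped between groups. In the reported fit the difference between their log2 fold changes was -0.034, with a 95% interval of -0.26 to 0.19 that takes the genes as independent.

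*Sall2* (chromosome 14, 52930847 to 52948437, minus strand) encodes a zinc finger factor of the spalt family. It had 473 and 472 normalized counts in WT and 755 and 776 in the KO-labelled libraries. It was the one member above the WT level in both KO-labelled libraries, and its replicates lay close together. *Sall2* was 1.62-fold higher in the KO-labelled libraries (log2 fold change 0.70 ± 0.15 SE, DESeq2 adjusted p = 2.0e-05).

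**Figure D1:**
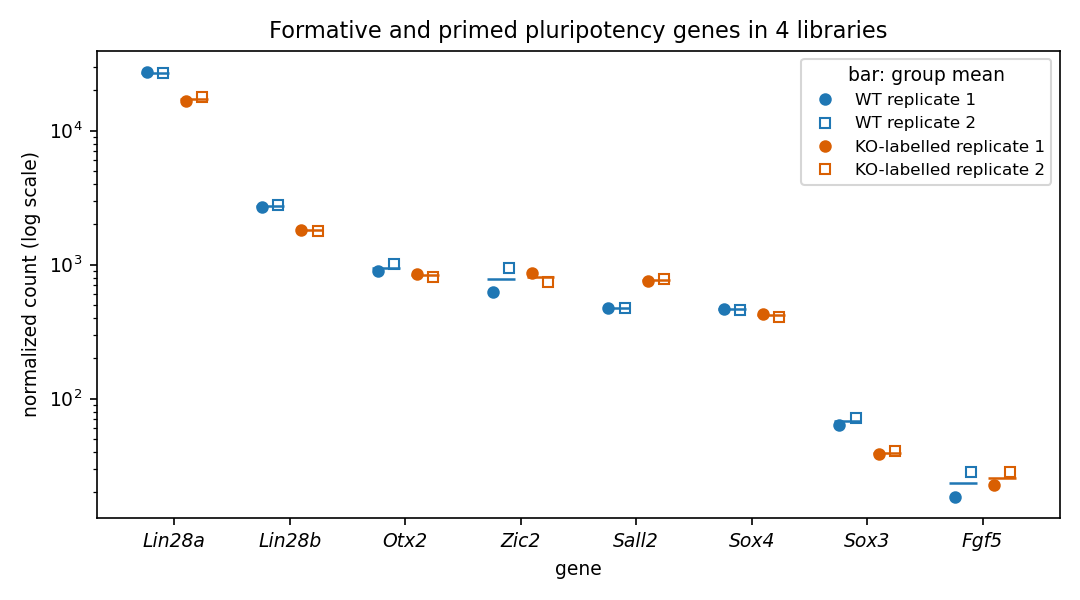
Normalized counts (log axis) of the 8 members that had counts, in each of the 4 libraries, with circles for replicate 1, squares for replicate 2 and bars for group means. *Lin28a* and *Lin28b* sit lower in both KO-labelled libraries and *Sall2* sits higher, while the *Zic2* and *Fgf5* groups overlap.

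*Otx2* (chromosome 14, 49277354 to 49287319, minus strand) encodes the homeobox factor that acts early in the exit from the naive state. It had 891 and 1005 normalized counts in WT and 849 and 810 in the KO-labelled libraries. These ranges did not overlap but lay close. The log2 fold change was -0.19 ± 0.13 SE (DESeq2 adjusted p = 0.28), with a 95% interval from -0.45 to 0.063, so a fall of up to 26.9% or a rise of up to 4.46% was within the error.

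*Sox3* (chromosome X, 58144545 to 58146605, minus strand), a SOXB1 factor that can stand in for SOX2 in pluripotent cells, had 63.6 and 71.9 normalized counts in WT and 38.3 and 40.7 in the KO-labelled libraries. Both KO-labelled libraries were below both WT libraries, from raw counts of 48, 66, 44 and 52. The log2 fold change of -0.78 ± 0.46 SE was the most negative of the members, yet it did not pass with DESeq2 (adjusted p = 0.20). With edgeR the value was -0.79 and passed (adjusted p = 0.041). The 95% interval ran from -1.68 to 0.12, and at this depth the size of a difference in *Sox3* was not resolved.

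*Sox4* (chromosome 13, 29040788 to 29045582, minus strand, 1 exon) encodes a SOXC factor. It had 467 and 457 normalized counts in WT and 429 and 407 in the KO-labelled libraries, without overlap (log2 fold change -0.14 ± 0.17 SE, DESeq2 adjusted p = 0.58). The 95% interval was -0.48 to 0.19. The value describes less than the whole gene: 54.6% of its exonic bases lay under the antisense lincRNA model *Gm17419*, which was listed at 0 in every library, and 8.45% lay under a second *Sox4* model, also listed at 0. Over the 2179 bases free of other models, its WT level would be 4.40 counts per kb per 1000000 counts in place of 2.00.

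*Zic2* (chromosome 14, 122874604 to 122879074, plus strand), a zinc finger factor of primed enhancers, had 626 and 940 normalized counts in WT and 872 and 747 in the KO-labelled libraries. Both KO-labelled values lay between those of the WT libraries. The log2 fold change was 0.045 ± 0.18 SE (DESeq2 adjusted p = 0.89), with a 95% interval of -0.30 to 0.39. It was -0.21 without WT replicate 1, 0.38 without WT replicate 2 and -0.061 without KO-labelled replicate 1, so its sign was set by single libraries.

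*Fgf5* (chromosome 5, 98683203 to 98706049, plus strand) was near the limit of detection in all 4 libraries, with raw counts of 14 and 26 in WT and 26 and 36 in the KO-labelled libraries. As normalized counts these were 18.6, 28.3, 22.6 and 28.2, and the groups overlapped. The log2 fold change was 0.11 ± 0.68 SE (DESeq2 adjusted p = 0.93), and the 95% interval of -1.23 to 1.45 would hold a change of 2-fold either way. Its sign turned without WT replicate 1 (-0.15) and without KO-labelled replicate 2 (-0.051). A count of 1 need not be 1 fragment here, since 64.0% to 66.5% of genes with 1 to 20 counts had an even count in each library.

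Counts of 6 of the 8 members did not overlap between groups, as for 70.2% of all genes tested. Such separation is therefore common between these lines, and it says nothing particular about the members.

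**Figure D2:**
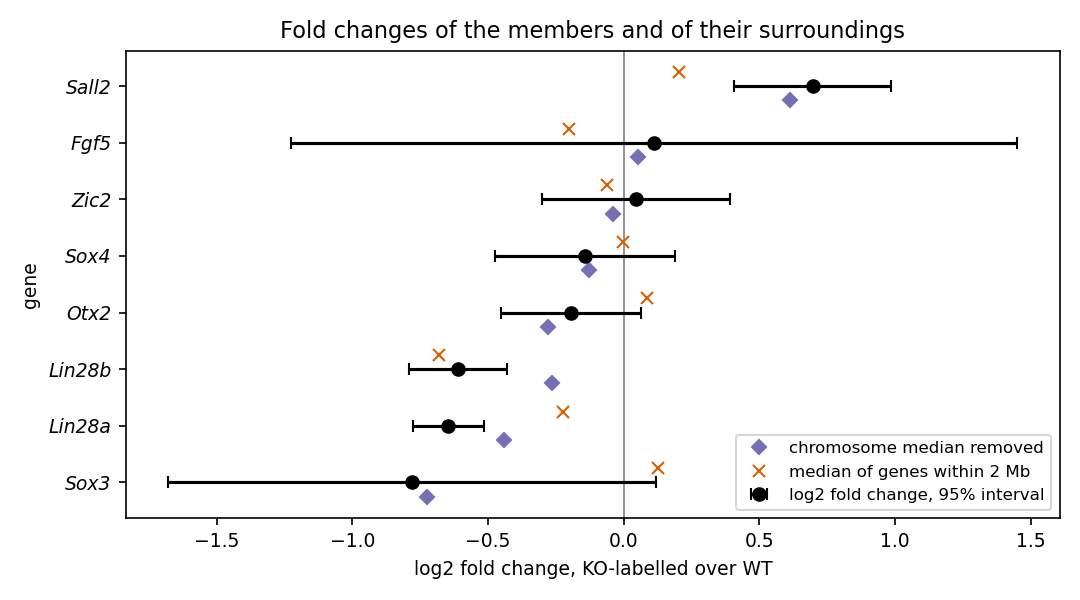
Log2 fold change of 8 members (KO-labelled over WT, black points with 95% intervals), the value after removing the chromosome's median (diamonds) and the median of other genes within 2 Mb (crosses). The intervals of *Lin28a*, *Lin28b* and *Sall2* exclude 0, and the cross of *Lin28b* falls inside its interval while those of *Lin28a* and *Sall2* do not.

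*Pou3f1* was listed at 0 in all 4 libraries in both of its models, and this is not a measure of its expression. The protein-coding model (chromosome 4, 124334896 to 124337899, plus strand) lies on the same strand as a model of type pseudogene with the same symbol (124334889 to 124337899). The latter skips 1 base, at 124336204, shown here as the capital in the mm9 plus strand.
Pou3f1 (chr4:124336190-124336219): agctggggcctggcGgggggcagcgcgtcg
Only 1 of the 3004 exonic bases of the protein-coding model, and 7 of the 3010 of the other, were free of the partner. Over the whole table, 126 protein-coding models had at least 95% of their exonic bases under another model on the same strand, and 95.2% of them were at 0 in every library, with no total above 4 counts. Of 43 models covered to that degree on the other strand, and under 5% on the same strand, 95.3% were at 0. Of all 22380 protein-coding models, 18.4% were at 0. The neighbouring gene *Utp11l*, which lies 17505 bases away, had 1923 to 3078 counts per library.

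Per-length levels were compared as counts per kb of exon per 1000000 counts. In WT the order was *Lin28a* (159.8 ± 0.87, SD, n = 2), *Lin28b* (6.30 ± 0.24), *Otx2* (5.80 ± 0.57), *Zic2* (3.89 ± 1.15), *Sox4* (2.00 ± 0.0027), *Sall2* (1.81 ± 0.018), *Sox3* (0.683 ± 0.067) and *Fgf5* (0.195 ± 0.060). *Lin28b* and *Otx2* were not separated beyond their spread in WT, where a *Lin28b* library at 6.13 lay below an *Otx2* library at 6.20. *Zic2*, at 3.08 and 4.70, lay below both, with a wider spread between replicates than either. In the KO-labelled libraries *Otx2* (5.08 ± 0.23) was above *Lin28b* (4.14 ± 0.11), *Zic2* (4.03 ± 0.48) overlapped *Lin28b*, and *Sall2* (2.93 ± 0.021) was above *Sox4* (1.82 ± 0.090). The order of that last pair turned over bases free of other models, where *Sox4* was at 3.99 ± 0.20. *Lin28a* was at 102.4 ± 3.48. The levels rest on the length used. With the longest transcript, the WT levels were 10.6 for *Lin28b*, 8.62 for *Otx2* and 6.22 for *Zic2*, in the same order as above. Over bases free of other models, *Sox4* was at 4.40 in WT, above the *Zic2* mean of 3.89.

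The members were then set beside their paralogues, 17 genes fixed as a list. Of these, 11 had an adjusted p, 2 passed as higher and 3 as lower, beside 16.4% and 15.8% of all genes tested. The paralogues given with values here are among those with a mean of at least 50 normalized counts. *Sall4*, a core pluripotency factor, was 1.32-fold higher in the KO-labelled libraries (log2 fold change 0.40 ± 0.062 SE, DESeq2 adjusted p = 3.0e-09). Its per-length level was 67.7 to 69.6 times that of *Sall2* in WT and 55.6 to 56.1 times in the KO-labelled libraries. *Sall2* thus rose more than *Sall4* by point value, but the difference of 0.30 in log2 fold change had a 95% interval of -0.015 to 0.61. *Sall3* had 886 and 939 normalized counts in WT and 500 and 456 in the KO-labelled libraries (log2 fold change -0.93 ± 0.14 SE, adjusted p = 1.2e-09). *Sall1* did not pass (log2 fold change -0.022, adjusted p = 0.91).

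The SOXC genes, which share a DNA-binding domain, differed from each other. *Sox11* had 688 and 954 normalized counts in WT and 372 and 362 in the KO-labelled libraries, and it was the only paralogue to reach the 2-fold call in the reported fit (log2 fold change -1.16 ± 0.18 SE, DESeq2 adjusted p = 8.9e-10). With chromosome medians removed *Sox11* was at -0.84, under 2-fold, and *Sall3* at -1.06 reached the call. *Sox12* rose 1.42-fold (adjusted p = 5.1e-06). The log2 fold change of *Sox4* exceeded that of *Sox11* by 1.02 (95% interval 0.54 to 1.50) and was below that of *Sox12* by a difference of -0.65 (95% interval -1.03 to -0.26). *Sox2*, the SOXB1 partner of POU5F1, had 6135 and 8770 normalized counts in WT and 9855 and 8814 in the KO-labelled libraries, and did not pass (log2 fold change 0.32 ± 0.27 SE, adjusted p = 0.40). The per-length level of *Sox2* was 80.9 and 102.4 times that of *Sox3* in WT and 215.8 and 181.7 times in the KO-labelled libraries, with no overlap.

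*Zic5*, like *Zic2*, did not pass (log2 fold change 0.25 ± 0.14 SE, DESeq2 adjusted p = 0.16). *Fgf4*, the autocrine factor that drives mESCs towards differentiation, fell by 13.5% (log2 fold change -0.21 ± 0.071 SE, adjusted p = 0.013). Its per-length level was 405.9 to 705.7 times that of *Fgf5* across the 4 libraries. *Otx1*, *Crx*, *Zic1*, *Zic4*, *Pou3f2*, *Pou3f3* and *Pou3f4* had means under 50 normalized counts and none passed. *Sox1* was not analysed here.

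**Figure D3:**
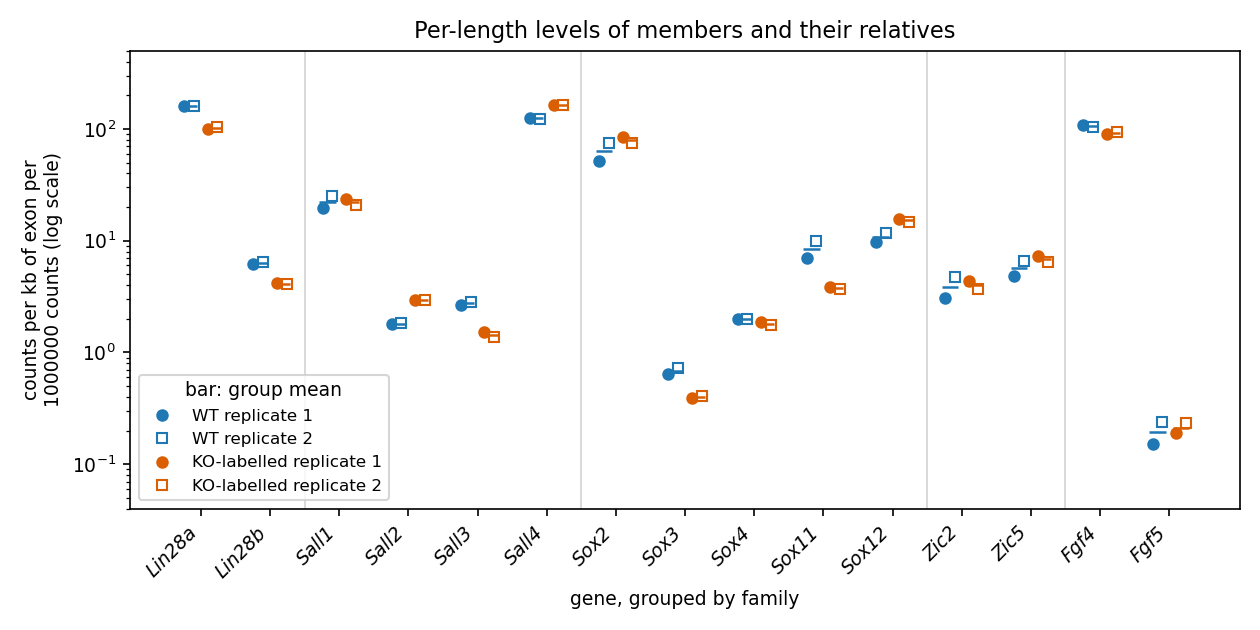
Counts per kb of exon per 1000000 counts (log axis) in the 4 libraries for members and 8 of their paralogues, grouped by family, with bars for group means. *Sall4* and *Lin28a* are over 90 in every library, *Fgf5* is under 0.3, and *Sox11* and *Sall3* sit lower in both KO-labelled libraries.

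Genes around the 3 members that passed the test were read next, since whole chromosomes differed between these lines. The window sizes were chosen after the values were seen. Within 2 Mb of *Lin28b* there were 11 other genes with a mean of at least 50 normalized counts, and all 11 had negative log2 fold changes, 9 of them past the test. Their median was -0.68, beside -0.61 for *Lin28b*, and 6 of the 11 were lower than it. *Cd24a* (-2.02), which encodes a surface glycoprotein, and *Prdm1* (-1.59), which encodes the germ cell regulator BLIMP1, were the most negative, and the nearest one, *Hace1*, was at -0.24 (adjusted p = 0.084). Within 5 Mb, 25 of 30 genes were negative, with a median of -0.38. The chromosome 10 median was -0.35, and its removal gave the smaller *Lin28b* value above.

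Around *Lin28a*, 70 of 87 genes within 2 Mb had negative values, 32 past the test, and 4 of the 17 positive ones passed too. The median of the 87 was -0.22. *Lin28a* itself was lower than 77 of the 87. The nearest gene on one side, *Dhdds*, was at -0.22 (adjusted p = 0.14). The chromosome 4 median was -0.21, and with it removed *Lin28a* was at -0.44 (DESeq2 adjusted p = 1.2e-09). Around *Sall2*, 21 of 26 genes within 2 Mb had positive values, 8 past the test, and 3 of the 5 negative ones passed too. Their median was 0.20, and *Sall2* was above all 26. Its neighbour *Mettl3*, which encodes the RNA m6A methyltransferase, was at 0.24 (adjusted p = 0.036). The chromosome 14 median was 0.084, and with it removed *Sall2* was at 0.61 (adjusted p = 2.7e-04). The part of the surrounding shift in these results was not tested.

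**Figure D4:**
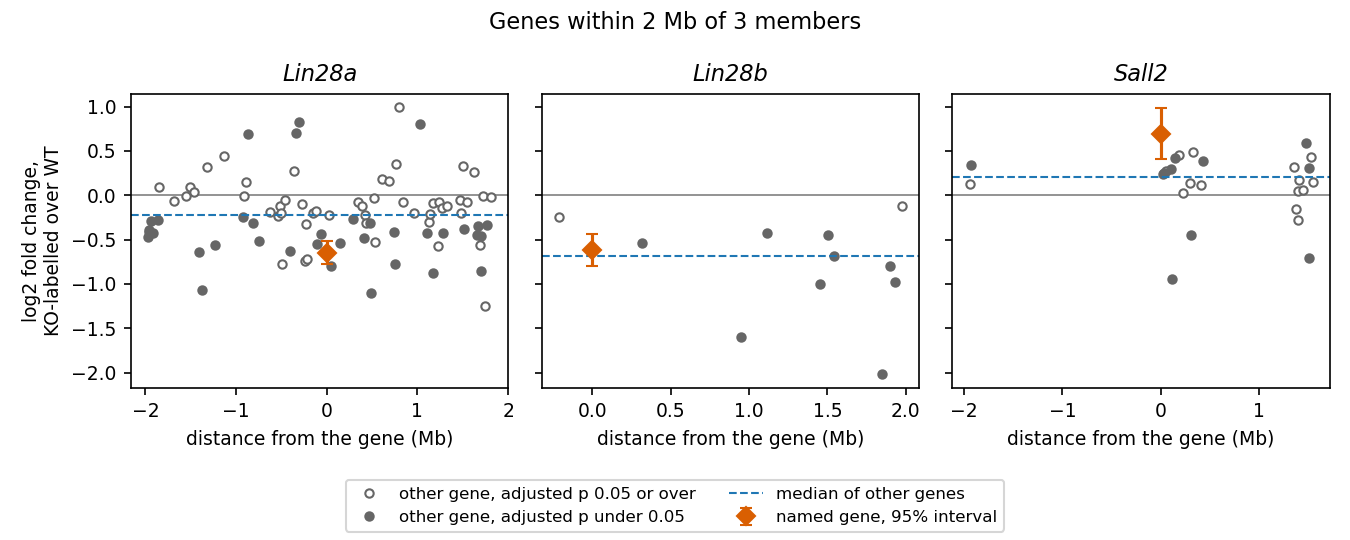
Log2 fold change (KO-labelled over WT) of genes within 2 Mb of *Lin28a*, *Lin28b* and *Sall2*, against distance from the gene in its direction of transcription, with filled circles for genes past the test, a diamond with its 95% interval for the named gene and a dashed line at the median of the others. *Lin28b* sits near its dashed line, with all 11 neighbours below 0, while *Sall2* sits above all 26 of its neighbours.

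The LIN28-let-7 pathway was described with a list of 23 genes, all of them measured and tested, of which 4 passed as higher, 9 as lower and 10 not. Among all genes tested, 16.4% passed as higher and 15.8% as lower. The list's median log2 fold change was -0.095, beside 0.0049 over all genes. Among the genes of let-7 processing, *Dicer1*, which cuts the hairpin, fell by 19.9% (log2 fold change -0.32, DESeq2 adjusted p = 1.0e-04). It lies on chromosome 12, whose median was -0.32, and with chromosome medians removed it was at -0.00012 and did not pass. The Argonaute gene *Ago2*, listed as Eif2c2, was at -0.18 (DESeq2 adjusted p = 0.028). *Xpo5*, the exporter of hairpins, was 1.13-fold higher (adjusted p = 0.040), at 0.32 on the log2 scale with chromosome medians removed, and did not pass with edgeR (adjusted p = 0.059). The uridylyl transferases that LIN28 recruits, *Zcchc11* and *Zcchc6*, were at 0.096 and -0.016, the nuclease *Dis3l2* was at 0.33, *Drosha* at -0.095 and *Dgcr8* at -0.17, and none of them passed, though *Drosha* did with chromosome medians removed (-0.16, adjusted p = 0.049) and *Dgcr8* with edgeR (-0.18, adjusted p = 0.0499).

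Genes known as let-7 targets or as partners of LIN28 differed in both directions. *Mycn*, a MYC family oncogene, had 12740 and 14400 normalized counts in WT and 4312 and 4816 in the KO-labelled libraries, a log2 fold change of -1.57 ± 0.085 SE (DESeq2 adjusted p = 5.0e-73). *Hmga2*, a chromatin protein gene and classic let-7 target, was at -1.49 ± 0.21 SE (adjusted p = 3.3e-11). In the reported fit these were the only list genes to reach the 2-fold call. With chromosome medians removed, *Igf2bp2* reached it too, as higher (1.05, DESeq2 adjusted p = 6.4e-14). *Ccnd2* (-0.94), *Hif3a* (-0.94), *Ccnd1* (-0.53), *Hmga1* (-0.46) and *Igf2bp3* (-0.23) also fell. *Igf2bp2* (0.82) and *Nras* (0.22) were among those that rose, and *Nras* did not pass with chromosome medians removed (0.13, DESeq2 adjusted p = 0.18). *Trim71* (0.086), *Igf2bp1* (0.071), *Myc* (0.068), *Arid3b* (-0.027) and *Arid3a* (-0.17) did not pass. Another model lay over 35.2% of the exonic bases of *Igf2bp3*, 21.3% of those of *Ccnd1*, 17.7% of those of *Zcchc6* and 11.3% of those of *Dgcr8* on the other strand, so their counts are uncertain.

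The seed match described above stood in the 3′ UTRs of 11 of the 23 list genes, with 4 matches each in *Hmga2* and *Igf2bp1* and 2 each in *Trim71* and *Arid3a*. Among these 4, *Hmga2* alone passed the test. *Mycn*, *Ccnd1* and *Ccnd2* fell and held no match in the annotated 3′ UTR. Mature let-7 was not measured. The gene models over the hairpins held 0 to 61 counts per library: let-7d had 27.8 and 39.2 normalized counts in WT and 52.2 and 47.7 in the KO-labelled libraries (DESeq2 adjusted p = 0.47), and none of the 9 models passed, 6 of them having too few counts for an adjusted p.

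**Figure D5:**
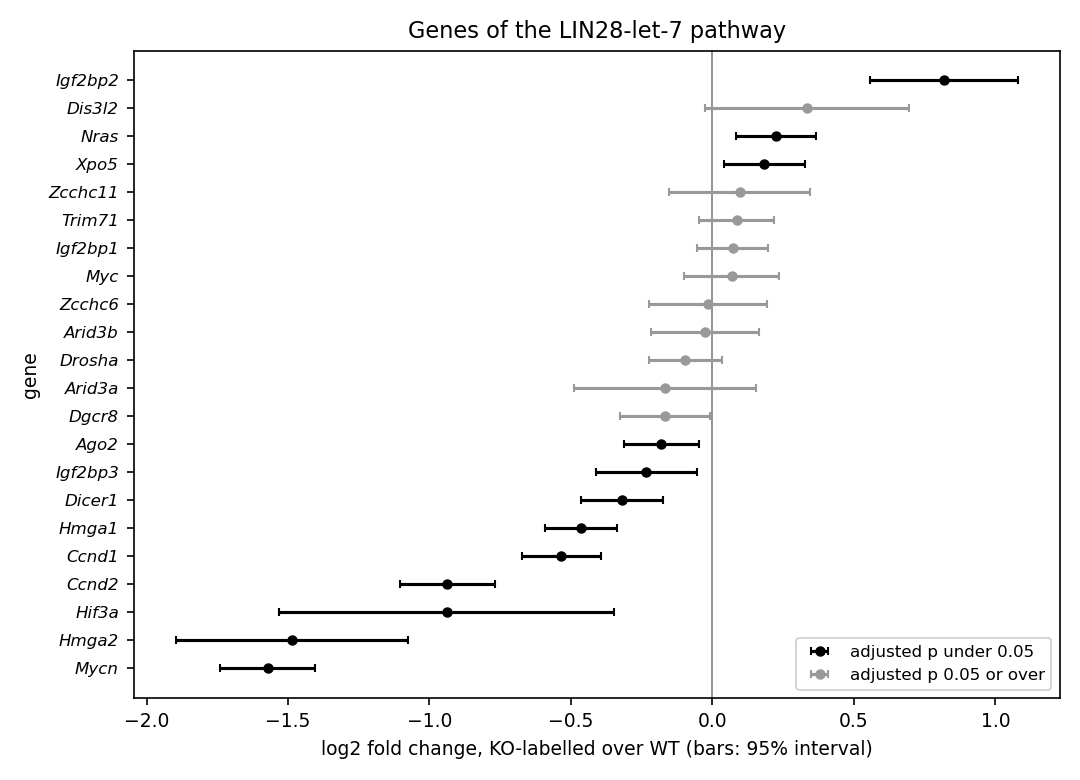
Log2 fold change (KO-labelled over WT) with 95% intervals for 22 of the 23 genes of the LIN28-let-7 list, black where the adjusted p was under 0.05 and grey otherwise. *Mycn* and *Hmga2* lie below -1 and *Igf2bp2* is the highest, at 0.82.

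A further list of 24 genes of the formative and primed states gave 23 tested. Of these 9 passed as lower, 2 as higher and 12 not, with a median log2 fold change of -0.27. The shares over all genes tested were 15.8% lower and 16.4% higher. *T*, the primitive streak factor brachyury, had 378 and 425 normalized counts in WT and 27.9 and 32.1 in the KO-labelled libraries (log2 fold change -3.74 ± 0.28 SE, DESeq2 adjusted p = 7.7e-38). *Dnmt3b*, the de novo DNA methyltransferase of the epiblast, was at -0.79 (adjusted p = 3.2e-29). *Grhl2*, a factor of epithelial enhancers in formative cells, was at -1.03 (adjusted p = 4.0e-14), and the ETS factor *Etv5* at -0.45 (adjusted p = 1.1e-10). *Etv4* (0.37) and the Wnt inhibitor *Sfrp2* (0.64) were higher, with adjusted p of 1.9e-06 and 0.040. With chromosome medians removed, *Etv5* was at -0.21 and *Etv4* at 0.20, both past the test, and *Sfrp2* at 0.55 did not pass (adjusted p = 0.099), while *Dnmt3a* did as higher (0.26, adjusted p = 0.0010). The list then counted 12 lower and 2 higher, as it did with edgeR. Another model lay over 16.1% of the exonic bases of *Sfrp2* on the other strand. The list holds the paralogues *Sox11* and *Zic5* already described.

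Markers of other cell types differed between the groups as well, and their values stand beside the members as measured. For comparison, 15.8% of all genes tested passed as lower and 16.4% as higher. The 8 primitive endoderm markers summed to 3985 and 3918 normalized counts in WT and 1343 and 1387 in the KO-labelled libraries, mostly *Lama1*, without which they summed to 536 and 582 against 286 and 246, with 3 of 6 tested lower and *Sox17* and *Foxa2* at 15.2 counts or fewer in each library. The 5 mesoderm markers summed to 1192 and 1207 against 441 and 473, with 3 of 4 lower. Among them, *T* and *Eomes* also stand in the further list of formative and primed genes. The 5 trophoblast markers summed to 406 and 393 against 94.0 and 73.6, with 3 of 4 lower. The 6 neural markers summed to 8904 and 9019 against 7740 and 8117, mostly *Tubb3*, without which they summed to 1103 and 1202 against 363 and 400, and *Pax6* (27.9% of its exonic bases under a model on the other strand) and *Map2* were lower while *Neurog2* stayed at 4.36 counts or fewer. The 8 fibroblast markers summed to 211 and 222 against 471 and 538, mostly *Thy1*, the 1 of 5 that passed (higher, where edgeR passed 2), without which they summed to 92.8 and 84.9 against 115 and 124, with *Postn*, *Dcn* and *Lum* at 8.71 or fewer. None of the markers of these lists was at 0 in all 4 libraries, and their part in the members' values was not tested.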

How the data were processed

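RNA-seq of 4 mESC libraries was analysed from the table that the authors deposited, which holds raw read counts per gene. Per the labels and methods, ribosomal RNA was depleted, stranded libraries were sequenced, and the authors mapped paired reads to mm9 with STAR and counted GENCODE vM1 genes with featureCounts. Versions, the strand setting and the treatment of multiply mapped reads are not given in the sources used here. Groups came from the sample titles.

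The main test was the Wald test of DESeq2 1.42.0 (R 4.3.3) with group as the one term, its own size factors and filtering, and Benjamini-Hochberg adjustment over all genes tested. It was tested on simulated data first. Normalized counts are counts divided by size factors. Positive values are higher in the KO-labelled libraries. Intervals are 95% normal intervals from the SE. Alternatives were edgeR 4.0.16, other size factors, filters, thresholds, lengths and libraries left out. With a library left out, its group's remaining library is taken to vary like the other group. Chromosome medians were removed through normalization factors.

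Members and lists were chosen with earlier results of these data known. All members are named; paralogues and LIN28-let-7 genes are named at a mean of at least 50 normalized counts, other lists by up to 4 genes per direction with the smallest adjusted p, and neighbours by position. Some genes of these lists are not reported here. The 2 most negative genes near *Lin28b* were chosen after their values were seen. Lower WT depth limits low genes there first, and no molecular identifiers were used, so intervals do not separate amplified copies. Replicate numbers did not pair libraries (correlation of deviations -0.018). All 37310 gene identifiers matched the annotation.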

Additional observations from a re-analysis of the deposited data

How the results depend on the processing

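Under TMM or upper-quartile size factors, a filter of 10 counts in 2 libraries, no independent filtering, removal of chromosome medians and a replicate block, 2 members passed as lower and 1 as higher, as in the reported fit. The replicate block (pairing by number) left *Lin28a*, *Lin28b* and *Sall2* past the test, with adjusted p of 8.8e-10, 2.0e-05 and 0.0022, and changed no other call. edgeR also passed *Sox3* (-0.79, adjusted p = 0.041) and so counted 3 as lower. With an adjusted p under 0.001 and no fold minimum, 1 member was called higher and 2 lower, where the 2-fold rule called 0. Over the 7 alternative fits, the log2 fold change ran from -0.66 to -0.44 for *Lin28a*, -0.62 to -0.27 for *Lin28b* and 0.61 to 0.73 for *Sall2*. Leaving out each library gave -0.69 to -0.59, -0.63 to -0.58 and 0.68 to 0.72, all past the test (highest adjusted p 0.018, for *Sall2*). Without single libraries the median of the members ran from -0.24 to -0.13. The sign of *Zic2* turned with chromosome medians removed (-0.039), without KO-labelled replicate 1 (-0.061) and without WT replicate 1 (-0.21), and that of *Fgf5* without KO-labelled replicate 2 (-0.051) and without WT replicate 1 (-0.15). Over single libraries left out, *Zic2* ran from -0.21 to 0.38 and *Fgf5* from -0.15 to 0.46. The cause was not tested, and neither gene passed in any fit. Low counts limit *Fgf5* and *Sox3*, overlapping models limit *Pou3f1* and *Sox4*, and 1 line per genotype limits all.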

Other observations

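Genes of the naive state, the state that the formative genes follow, were mixed between the groups. Of 19 tested, 8 passed as higher in the KO-labelled libraries and 6 as lower, with a median log2 fold change of 0.014. Over all genes tested, 16.4% passed as higher and 15.8% as lower. *Bmp4* (0.97), the self-renewal factor *Tbx3* (0.79), the dioxygenase gene *Tet2* (0.61) and *Tfcp2l1* (0.52) rose, with DESeq2 adjusted p of 3.5e-16, 2.2e-26, 2.4e-14 and 1.3e-12. *Gbx2* (-0.79), *Dppa3* (-0.55), *Nr0b1* (-0.45) and *Tcl1* (-0.32) fell, with adjusted p of 3.8e-10, 4.7e-09, 5.4e-07 and 0.0029. *Nanog*, *Esrrb* and *Klf4* lay within 0.06 of 0 on the log2 scale and did not pass. With chromosome medians removed, *Tcl1* was at 0.0041 and did not pass (adjusted p = 0.98), while *Esrrb* (0.29, adjusted p = 7.9e-05) and *Klf4* (0.22, adjusted p = 0.019) passed as higher, *Klf2* (0.26), *Dppa5a* (0.15) and *Zfp42* (0.13) no longer passed, and the list counted 7 higher and 5 lower. Another model lay over 32.4% of the exonic bases of *Gbx2* on the other strand, so its count is uncertain. Of 12 symbols listed as general pluripotency genes, *Tcf3* is left out here, since by its identifier it is a bHLH factor gene of chromosome 10 and not *Tcf7l1*, the pluripotency factor once called by that name. Of the others, *Sall4* (0.40), *Zfp281* (0.55), *Rif1* (0.33) and *Trim28* (0.26) rose, and 7 did not pass, *Pou5f1* among them (0.0057). With chromosome medians removed, *Rif1* (0.22, adjusted p = 0.061) and *Trim28* (0.16, adjusted p = 0.17) did not pass, while *Dppa2* (0.27) and *Dppa4* (0.20) passed as higher.

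The WT libraries differed from each other in several relatives of the members. *Zic2* was higher in WT replicate 2 than in replicate 1 by 0.59 on the log2 scale, *Sox2* by 0.52, *Sox11* by 0.47, *Zic5* by 0.43 and *Sall1* by 0.34, where the SD over 13306 genes was 0.229. Between the KO-labelled libraries the same genes differed by -0.22, -0.16, -0.037, -0.16 and -0.14. *Lin28a*, *Lin28b*, *Sall2* and *Sox4* differed by 0.051 or less in size between the WT libraries. These genes were picked after their values were seen.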
